A study of Mus musculus with 3 samples.

Results

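The genes described here encode 8 surface molecules with which antigen-presenting cells steer T cells: Cd80, Cd86, Cd83, Cd274, Pdcd1lg2, Icosl, Icam1 and Cd276. They were taken by gene symbol from a table of 26661 genes, and each symbol matched 1 row; the list was drawn up with earlier results of these data known. RNA-seq of poly(A)-selected RNA was done on RAW264.7, a mouse macrophage line from a virus-induced leukaemia, labelled as wild type. One library came from cells given harmine at 10 µM for 0.5 h and then lipopolysaccharide (LPS) at 0.5 µg/ml for 6 h, 1 from cells given the same LPS alone, and 1 from control cells in ordinary medium. LPS is a bacterial glycolipid sensed by toll-like receptor 4, and harmine is a plant alkaloid that inhibits the kinase DYRK1A. No library of harmine without LPS was analysed here, so whether what harmine did needed LPS cannot be told apart from these libraries. With 1 library per group there is no replicate check: every difference below compares these libraries, differences between cultures are part of it, and no p-value is given.

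A T cell needs a second signal beside its antigen receptor, and much of it comes from the B7 family on the presenting cell. CD80 and CD86 bind the activating receptor CD28 and the inhibitory receptor CTLA-4, ICOSL binds ICOS, and PD-L1 and PD-L2, encoded by Cd274 and Pdcd1lg2, bind the inhibitory receptor PD-1. CD276, also called B7-H3, is a B7 relative whose effect on T cells has been described as both stimulating and inhibiting. CD83 marks mature dendritic cells and keeps CD86 and MHC class II at the surface, and ICAM-1 is the adhesion molecule that the integrin LFA-1 grips. In macrophages, NF-kB and interferon signalling downstream of toll-like receptor 4 are known to switch on several of these genes.

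Promoter sequence is shown for 5 of the 6 genes that differed by 2-fold or more with LPS, Cd83 having no entry, to let their start regions be set side by side. The sequences are from RefSeq, build GRCm38.p6, 250 bases before to 50 after the start site, 5′ to 3′ on the gene's strand. Capitals mark matches, on either strand, to GGNNNTTCC, a pattern of the kind NF-kB binds, or to GAAANNGAA, the core of interferon response elements bound by IRF factors. The windows are chr9:21015690-21015989 (plus strand) for Icam1, chr19:29367188-29367487 (plus) for Cd274, chr10:78069118-78069417 (plus) for Icosl, chr16:38458683-38458982 (plus) for Cd80 and chr9:58554984-58555283 (minus) for Cd276. Those of Cd80 and Cd276 lie wholly inside the deposited genes (38455561 to 38496335 and 58524298 to 58555437). For these 2 genes the RefSeq start site is thus not the start of the gene whose FPKM is given. The windows of Icam1, Cd274 and Icosl contain the start of the deposited gene (21015985, 29367455 and 78069302), but not exactly at the RefSeq start site.
Icam1: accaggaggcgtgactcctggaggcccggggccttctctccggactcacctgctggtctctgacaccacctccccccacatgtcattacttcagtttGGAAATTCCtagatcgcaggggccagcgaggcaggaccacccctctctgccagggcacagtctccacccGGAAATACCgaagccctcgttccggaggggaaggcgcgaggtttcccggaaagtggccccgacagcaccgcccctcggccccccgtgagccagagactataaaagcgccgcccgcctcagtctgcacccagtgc
Cd274: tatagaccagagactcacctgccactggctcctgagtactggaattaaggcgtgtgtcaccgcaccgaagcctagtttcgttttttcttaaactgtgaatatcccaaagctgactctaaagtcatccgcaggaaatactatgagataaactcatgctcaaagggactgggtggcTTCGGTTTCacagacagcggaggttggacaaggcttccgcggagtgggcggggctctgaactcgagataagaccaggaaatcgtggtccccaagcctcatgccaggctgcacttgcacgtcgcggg
Icosl: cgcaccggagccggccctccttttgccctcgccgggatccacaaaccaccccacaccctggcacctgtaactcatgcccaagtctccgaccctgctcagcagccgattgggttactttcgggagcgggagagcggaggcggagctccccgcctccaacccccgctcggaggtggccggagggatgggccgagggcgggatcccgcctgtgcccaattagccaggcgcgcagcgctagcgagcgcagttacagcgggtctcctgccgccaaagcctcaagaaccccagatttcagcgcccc
Cd80: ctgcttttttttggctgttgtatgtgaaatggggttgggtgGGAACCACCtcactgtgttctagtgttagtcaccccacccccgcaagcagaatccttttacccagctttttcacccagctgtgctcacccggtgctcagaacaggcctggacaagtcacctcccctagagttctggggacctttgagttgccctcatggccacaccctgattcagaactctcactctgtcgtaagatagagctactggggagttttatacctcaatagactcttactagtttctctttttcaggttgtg
Cd276: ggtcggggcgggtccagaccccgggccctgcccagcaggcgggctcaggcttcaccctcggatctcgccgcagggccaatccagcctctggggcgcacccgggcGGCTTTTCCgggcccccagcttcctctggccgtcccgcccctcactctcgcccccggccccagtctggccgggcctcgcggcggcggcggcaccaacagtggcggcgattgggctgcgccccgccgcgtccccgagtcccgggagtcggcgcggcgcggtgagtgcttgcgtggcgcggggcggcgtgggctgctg
The Icam1 window held 2 matches, GGAAATTCC at positions -153 to -145 from the start site and GGAAATACC, matched on the minus strand, at -84 to -76. The Cd276 window held 1, GGCTTTTCC, and so did the Cd80 window, GGAACCACC on the minus strand at -209 to -201. Such a match was found in 18.5% of the 32851 RefSeq promoter windows of this length. The windows of Cd274 and Icosl held no such match, which says only that these letters are absent there. The Cd274 window held the 1 match to GAAANNGAA among the 5 genes, TTCGGTTTC on the minus strand at -76 to -68, and 8.56% of all windows held one. The interferon-type pattern was first searched with 1 further A at its end, a form that none of the 5 windows held and 3.44% of all windows did, and was shortened afterwards. Both other patterns searched on both strands gave 1 match each, overlapping none in capitals: TTCNNNGAA (STAT type, 8.3% of windows) was in Icam1, and TGANTCA (AP-1 type, 7.81%) was in Cd80, as TGATTCA at -42 to -36. GC content was 78.3% for Cd276, 68% for Icosl, 64.7% for Icam1, 52.7% for Cd274 and 49.7% for Cd80, beside a median of 52.7% over all windows.

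Values are FPKM, fragment numbers scaled to transcript length and library size, as the authors deposited them, so levels can be compared between genes. The gene counts amounted to 14097993 read pairs with harmine plus LPS, 13211397 with LPS and 14542500 in control, if 4 deposited counts are taken as 1 read pair, which is inferred from the values. A gene was compared when it reached 1 FPKM in at least 1 library, which 12197 genes did. Of the 8 genes here 6 did so, while Cd86 and Pdcd1lg2 stayed below in all 3 libraries. A difference is that of log2(FPKM + 1), which understates differences of low genes, and calls of higher or lower need a 2-fold difference on that scale. Folds are plain FPKM ratios, and the range in brackets after one is a 95% exact binomial interval that covers counting error only. Library RNA cannot tell fewer cells expressing a gene from less transcript per cell.

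The macrophage identity of the libraries was checked first. All 12 macrophage markers were in the table and 11 reached 1 FPKM. Their summed level was 1734 FPKM with harmine plus LPS, 2192 FPKM with LPS and 2439 FPKM in control. The tissue label reads lung. Among the epithelial markers, the surfactant gene Sftpb was at 0, 0.0130 and 0 FPKM in that order. Ager was at 0.921, 0.662 and 0.600 FPKM, Epcam at 4.45, 3.07 and 0.995 FPKM and Krt8 at 10.5, 8.09 and 2.61 FPKM. Markers of other cells that carry these molecules were near 0: the 8 B cell markers summed to 0.717, 0.740 and 0.312 FPKM and the 9 dendritic cell markers found to 2.30, 2.43 and 2.77 FPKM. The 10 T cell markers summed to 2.88, 3.01 and 0.600 FPKM, mostly the kinase gene Lck, with Cd3e at 0.00680, 0.0279 and 0 FPKM. The 8 epithelial markers found (24.2, 18.8 and 5.06 FPKM) and the 8 fibroblast markers (14.0, 13.6 and 3.20 FPKM) were lowest in control. Their part in the differences below was not tested.

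**Figure D1:**
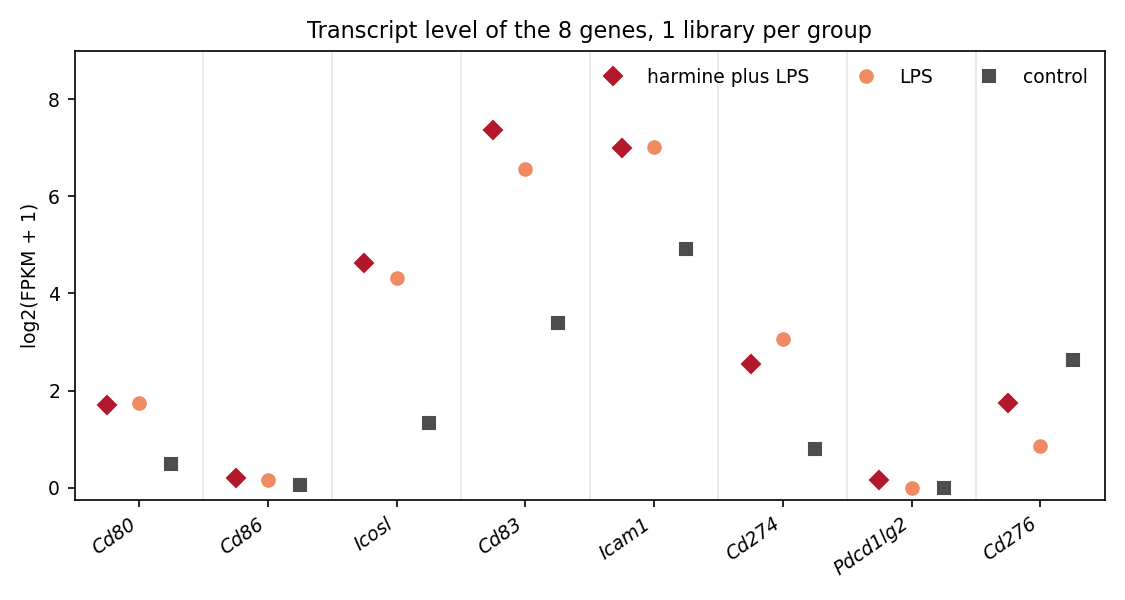
Transcript level of each gene as log2(FPKM + 1) (y axis), with 1 point per library: diamonds for harmine plus LPS, circles for LPS and squares for control. The points of 5 genes lie above their control square in both LPS libraries, those of Cd276 below it, and Cd86 and Pdcd1lg2 lie near 0 throughout.

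With LPS alone, 5 of the 6 compared genes stood 2-fold or more above control and 1 stood below: Icosl, Cd274, Cd83, Cd80 and Icam1 were higher and Cd276 was lower. Across all compared genes, 5.79% were higher at that threshold and 7.21% lower. The median difference of the 6 genes was 2.19 log2, beside -0.13 log2 for all compared genes; over all 8 genes it was 1.68 log2. Cd274 and Cd80 reached 1 FPKM only in the LPS libraries, so they entered the comparison through the libraries in which they were high. The differences ran between 3.18 log2 for Cd83 and 1.26 log2 for Cd80 among the higher genes.

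Among the ligands of the CD28 branch, Cd80 (chromosome 16, 38455561 to 38496335) was at 2.24 FPKM with harmine plus LPS, 2.34 FPKM with LPS and 0.396 FPKM in control. LPS was 5.92-fold (3.89 to 9.78) above control. Both LPS libraries lay far above control and close to each other. Even so, Cd80 remained a low transcript: 25.3% of the compared genes stood below it in the LPS library.

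Cd86 (chromosome 16, 36603869 to 36666081), the other CD28 ligand and a common flow cytometry marker of activated macrophages, was hardly detected. It had 0.139 FPKM with harmine plus LPS, 0.108 FPKM with LPS and 0.0328 FPKM in control, from 33, 24 and 8 deposited counts. The ratio of LPS to control was 3.30 (0.590 to 33.4), an interval that includes no difference. At this depth a change of Cd86 was not detectable. In the LPS library Cd80 stood at 2.34 FPKM beside 0.108 FPKM for Cd86.

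Icosl (chromosome 10, 78069302 to 78079525), the ligand of the T cell receptor ICOS, was at 23.7 FPKM with harmine plus LPS, 19.1 FPKM with LPS and 1.51 FPKM in control. LPS was 12.6-fold (10.4 to 15.4) above control, with an interval that overlaps those of Cd274 and Cd83. In the LPS library 78.6% of the compared genes stood below Icosl, against 14.5% in control.

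Cd83 (chromosome 13, 43784775 to 43803132) was at 164 FPKM with harmine plus LPS, 93.7 FPKM with LPS and 9.43 FPKM in control. LPS was 9.93-fold (8.96 to 11.04) above control. The 3 libraries are well apart, and with harmine plus LPS Cd83 was the most abundant transcript of the 8, above 97.8% of the compared genes.

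Icam1 (chromosome 9, 21015985 to 21028817), the adhesion ligand, was at 127 FPKM with harmine plus LPS, 128 FPKM with LPS and 29.0 FPKM in control. It was already the most abundant of the 8 in control, and LPS was 4.41-fold (4.20 to 4.62) above it. On the deposited FPKM scale the LPS libraries could not be told apart within counting error.

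For the inhibitory PD-1 ligands, Cd274 (chromosome 19, 29367455 to 29388095), which encodes PD-L1, was at 4.82 FPKM with harmine plus LPS, 7.35 FPKM with LPS and 0.728 FPKM in control. LPS was 10.1-fold (7.33 to 14.0) above control, and the harmine plus LPS library lay between the other two. An antisense gene, Gm36043, lies inside Cd274 and had 0.328, 0.644 and 0.0168 FPKM in the same order. The libraries keep strand, but no source used here says whether counting used it, so reads may be shared between the 2 genes.

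Pdcd1lg2 (chromosome 19, 29410919 to 29471161), which encodes PD-L2 and is the next gene downstream of Cd274 on the same strand, was listed with 14 deposited counts with harmine plus LPS (0.107 FPKM) and 0 in both other libraries. A count of 0 allows up to 3 read pairs, which is 0.0973 FPKM in the LPS library and 0.0883 FPKM in control. No ratio was computed, since all 3 values lie at or near that limit. Of the PD-1 ligands, these cells thus held Cd274 transcript with LPS at 7.35 FPKM and Pdcd1lg2 transcript at no more than 0.0973 FPKM. The gene Plgrkt, which starts on the opposite strand close to the Cd274 start, was at 6.05, 5.91 and 5.41 FPKM.

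Cd276 (chromosome 9, 58524298 to 58555437), encoding B7-H3, went the other way. It was at 2.36 FPKM with harmine plus LPS, 0.802 FPKM with LPS and 5.20 FPKM in control. LPS was 6.49-fold (4.75 to 9.17) below control. In control Cd276 was the third most abundant of the 8 genes, and with LPS it stood under Cd80.

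**Figure D2:**
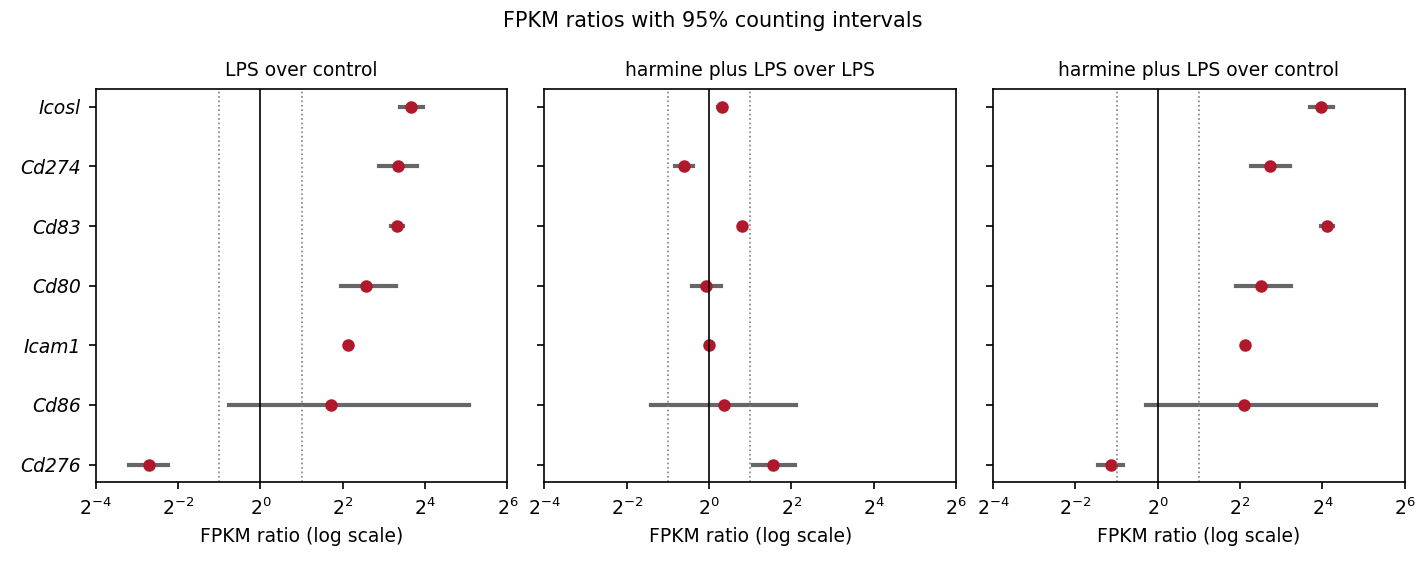
FPKM ratios (x axis, log scale) of 7 genes in the 3 comparisons; bars are 95% counting intervals, the solid line marks equal levels and dotted lines 2-fold. Icosl, Cd274, Cd83, Cd80 and Icam1 lie right of the solid line for LPS over control and Cd276 left of it, while for harmine plus LPS over LPS Cd83 and Cd276 lie right of it and Cd274 left.

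Between harmine plus LPS and LPS the differences were smaller. None of the 6 compared genes was 2-fold or more higher or lower than with LPS alone, where 0.664% of all compared genes were higher and 0.935% lower. At 1.5-fold, Cd83 and Cd276 were higher and none was lower, 2 of 6 beside 5.3% of all genes higher and 3.35% lower. Cd274, at -0.52 log2, lay just short of 1.5-fold and passed it with 0.1 FPKM added (-0.60 log2) and after median-of-ratios (-0.64), TPM (-0.59) or CPM (-0.59) rescaling. The median of the 6 was 0.14 log2, beside 0.10 log2 for all compared genes.

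Cd276 had the largest difference, 0.90 log2, in the direction opposite to that of LPS. Its plain FPKM ratio was 2.95 (2.09 to 4.25), from 553 deposited counts with harmine plus LPS and 177 with LPS. The call at 2-fold therefore depends on the 1 FPKM added: with 0.1 FPKM added the difference was 1.45 log2. Against control, the ratio of Cd276 with harmine plus LPS was 0.454 (0.368 to 0.555).

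Cd83 differed by 0.80 log2, a ratio of 1.75 (1.68 to 1.82), in the same direction as the difference between LPS and control. Icosl was 1.24-fold (1.16 to 1.34) higher with harmine plus LPS, a difference of 0.30 log2. Both depend on the scaling: after median-of-ratios rescaling the differences were 0.66 log2 for Cd83 and 0.16 log2 for Icosl. Cd274 was 1.52-fold (1.30 to 1.78) lower, a difference of -0.52 log2. Among these 4 genes the harmine plus LPS library was thus higher for Cd276, Cd83 and Icosl and lower for Cd274.

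For Icam1 and Cd80 no difference was detectable on the deposited FPKM scale between the libraries with and without harmine. The Icam1 ratio was 0.992 (0.963 to 1.02) and that of Cd80 was 0.956 (0.746 to 1.23). For Icam1 this depends on the scaling: its difference of -0.01 log2 became -0.15 log2 after median-of-ratios and -0.08 log2 after upper-quartile rescaling, both beyond the counting interval. The interval of Cd86 ran from 0.379 to 4.36 and so limits little.

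Against control, the harmine plus LPS library had 5 of 6 genes 2-fold or more higher and none lower, beside 5.14% and 4.86% of all compared genes. Of the higher ones, Cd274 and Cd80 entered the comparison only through the libraries with LPS, in which they were high. Cd83 was 17.4-fold (15.7 to 19.2) higher, Icosl 15.7-fold (13.0 to 19.1), Cd274 6.62-fold (4.78 to 9.26), Cd80 5.66-fold (3.73 to 9.35) and Icam1 4.37-fold (4.17 to 4.59). Cd276 differed by -0.88 log2. This comparison shares the harmine plus LPS library with the one before and the control library with the one on LPS alone.

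**Figure D3:**
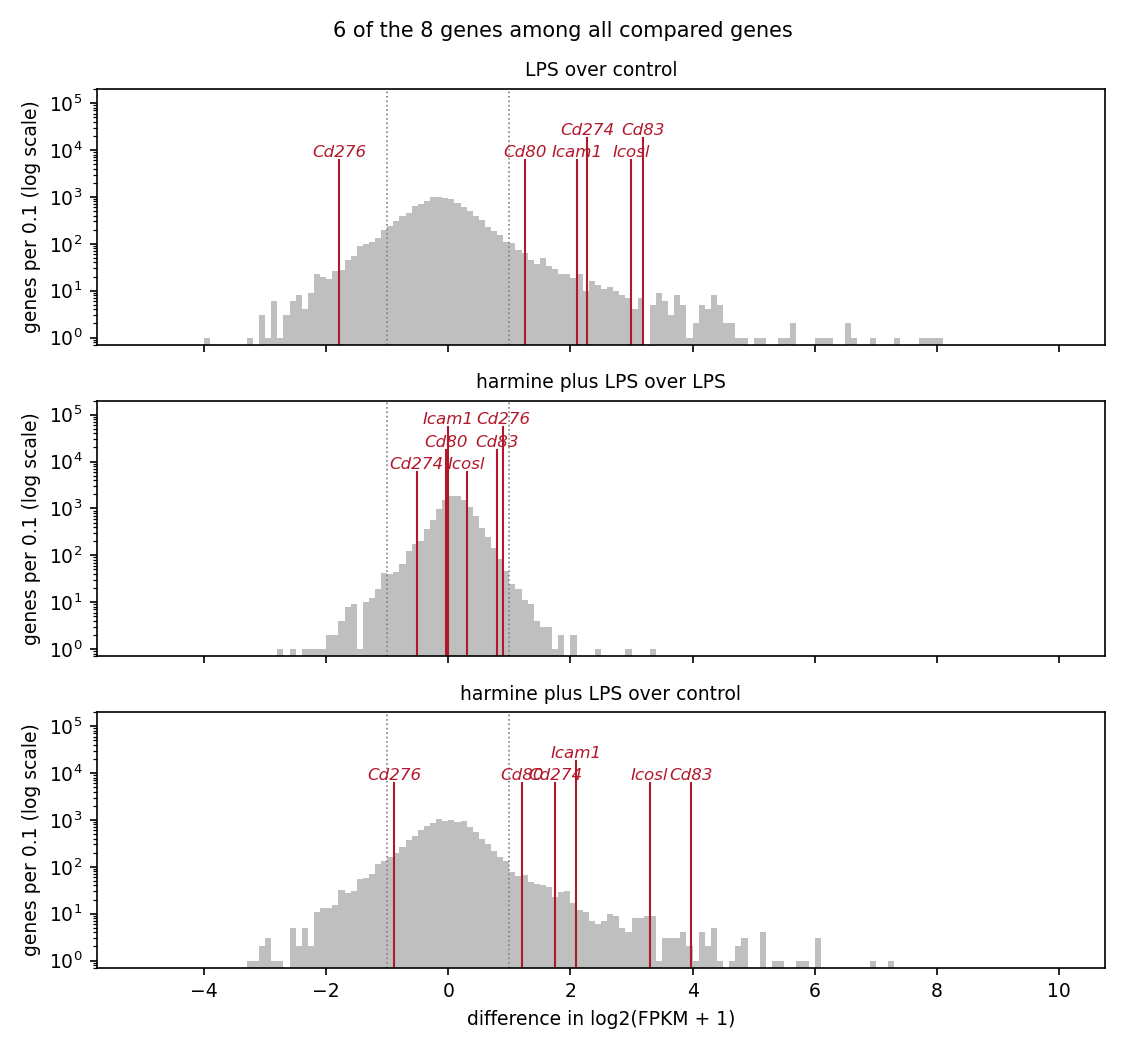
Number of genes (y axis, log scale) by difference in log2(FPKM + 1) (x axis) for the 12197 compared genes in each comparison; vertical lines mark 6 of the 8 genes and dotted lines 2-fold. For LPS over control 5 lines lie right of 2-fold and Cd276 lies left, while for harmine plus LPS over LPS all 6 lie within 2-fold.

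The order of levels differed between the libraries. With harmine plus LPS it ran Cd83, Icam1, Icosl, Cd274, Cd276, Cd80, Cd86 and Pdcd1lg2, and the neighbours Cd276 (1.98 to 2.79 FPKM, 95% Poisson interval) and Cd80 (1.88 to 2.66 FPKM) were not separated by counting error, nor were Cd86 and Pdcd1lg2. With LPS it ran Icam1, Cd83, Icosl, Cd274, Cd80, Cd276, Cd86 and Pdcd1lg2. In control it ran Icam1, Cd83, Cd276, Icosl, Cd274, Cd80, Cd86 and Pdcd1lg2. There the intervals of Cd274 (0.532 to 0.983 FPKM) and Cd80 (0.248 to 0.577 FPKM) overlapped. Cd86 and Pdcd1lg2 were not separated by counting error with LPS or in control either. The 4 lowest in control had under 1 FPKM each.

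The genes with the most similar pattern over the 3 libraries were sought among 1569 protein-coding genes that spanned at least 1 log2, by the distance between log2(FPKM + 1) values centred on their mean. For Cd276 they were Chaf1b, a chromatin assembly factor subunit used in DNA replication, at 5.89, 2.77 and 11.9 FPKM (distance 0.02 log2), and the kinase Dyrk3 (0.08). For Cd274 they were Samd9l (0.05) and Spp1, encoding osteopontin (0.06). For Icam1 they were Defa42 (0.07) and the NF-kB inhibitor Nfkbie (0.07), and for Icosl the kinase Plk2 (0.10) and the proteoglycan gene Sdc4 (0.12). For Cd80 they were Nrp2 (0.01) and Csrnp1 (0.02). Cd83 had no gene within 0.25 log2, while 154 genes lay within 0.25 log2 of Cd80. With 3 libraries such likeness is a weak description.

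The receptors listed for these ligands include T cell genes and integrin genes that macrophages also express, and 5 of the 9 listed reached 1 FPKM. With LPS 2 of the 5 were 2-fold or more higher than control and none lower, beside 5.79% and 7.21% of all compared genes. Pdcd1, which encodes PD-1, the receptor of the Cd274 product, was at 44.4 FPKM with harmine plus LPS, 36.6 FPKM with LPS and 5.69 FPKM in control, 6.43-fold (5.49 to 7.57) higher with LPS. Receptor and ligand were thus higher together with LPS in these macrophage libraries, in which the T cell gene Cd3e did not exceed 0.0279 FPKM. The CD28 family receptor genes Cd28 (0, 0.00974 and 0.0751 FPKM), Ctla4 (0.0415, 0 and 0 FPKM) and Icos (0.0510, 0.0182 and 0.630 FPKM) stayed below 1 FPKM.

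Itgal, which encodes the alpha chain of LFA-1, the integrin that binds ICAM-1, was at 2.58 FPKM with harmine plus LPS, 9.68 FPKM with LPS and 1.03 FPKM in control. It was 9.38-fold (7.69 to 11.5) higher with LPS than in control, and 3.76-fold (3.28 to 4.32) lower when harmine came ahead of LPS. This was the only one of the 5 past 2-fold with harmine, beside 0.935% of all genes lower. Its ligand gene Icam1 had a ratio of 0.992 in the same comparison. The shared beta chain gene Itgb2 (48.9, 62.3 and 54.2 FPKM) and Itgam (7.86, 13.0 and 19.1 FPKM), whose product also binds ICAM-1, differed by -0.34 and -0.66 log2 between harmine plus LPS and LPS.

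**Figure D4:**
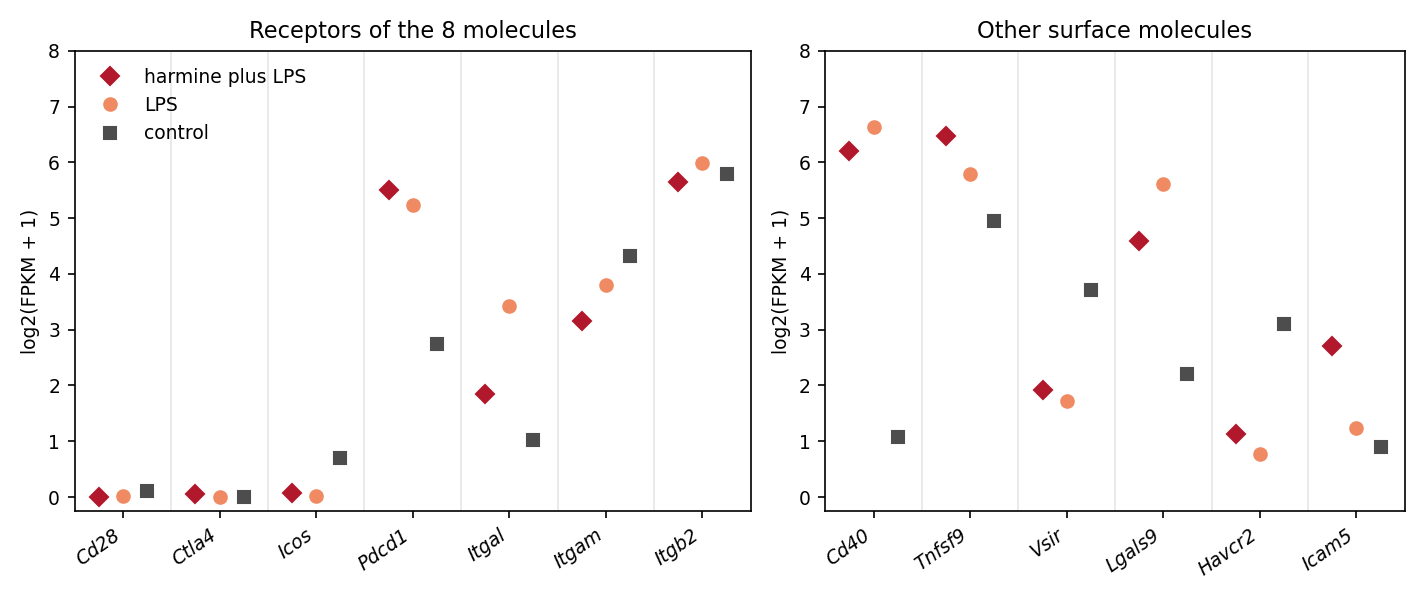
Level as log2(FPKM + 1) (y axis) of 7 receptor genes for the 8 molecules (left) and of 6 other surface molecules (right), 1 point per library: diamonds for harmine plus LPS, circles for LPS and squares for control. Itgal is highest in the LPS library, Pdcd1 is high in both LPS libraries, and Icam5 is highest with harmine plus LPS.

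Of 10 other B7 and butyrophilin relatives, 7 were in the table and only Vsir reached 1 FPKM. Vsir encodes VISTA, an inhibitory B7 relative, and was at 2.77 FPKM with harmine plus LPS, 2.29 FPKM with LPS and 12.0 FPKM in control, 5.25-fold (4.46 to 6.21) lower with LPS. Vsir and Cd276 were the B7 relatives lower with LPS, and with harmine plus LPS their ratios to LPS were 1.21 (0.987 to 1.48) and 2.95.

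Among costimulators of the TNF family, 2 of the 8 in the table reached 1 FPKM. Cd40, the receptor through which helper T cells license presenting cells, was at 73.1 FPKM with harmine plus LPS, 98.6 FPKM with LPS and 1.10 FPKM in control, 89.4-fold (69.5 to 116) higher with LPS. Tnfsf9, the ligand of the costimulatory receptor CD137, was at 88.2, 54.6 and 30.0 FPKM in that order. Between harmine plus LPS and LPS they differed in opposite directions, by -0.43 and 0.68 log2, and neither passed 2-fold.

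Of 14 compared genes for other adhesion and inhibitory surface molecules, 4 were higher with LPS and 2 lower, beside 5.79% and 7.21% of all compared genes. The higher ones were the galectin gene Lgals9 (3.41 log2), the inhibitory receptor Lilrb4a (2.67), the lectin Clec2d (2.15) and the nectin-like ligand Pvr (1.54). Clec2d, at 0.212 FPKM in control, entered the comparison only through the LPS libraries, in which it was high. The lower ones were Havcr2, encoding the checkpoint receptor TIM-3, at 1.20, 0.713 and 7.60 FPKM, and Sirpa, the receptor for CD47, at 16.4, 23.4 and 59.6 FPKM. With harmine plus LPS against LPS, 1 was higher and 1 lower, beside 0.664% and 0.935% of all. Icam5, a neighbour of Icam1 on the same strand of chromosome 9 (21032073 to 21039036), was at 5.49 FPKM with harmine plus LPS, 1.35 FPKM with LPS and 0.857 FPKM in control, a ratio of 4.08 (3.06 to 5.47). The lower one was Lgals9, a ligand of TIM-3, at 23.0, 48.0 and 3.61 FPKM. Icam4, between Icam1 and Icam5, was at 1.12, 0.450 and 1.24 FPKM. The 3 neighbouring genes of the ICAM family thus each had a different pattern, although overlap with antisense genes makes the 2 low ones uncertain.

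MHC class II genes, whose products present the antigen that these signals accompany, had 5 of 12 members at 1 FPKM. None of the 5 was past 2-fold on the log2(FPKM + 1) scale with LPS, beside 5.79% of all compared genes higher and 7.21% lower. Between harmine plus LPS and LPS none was past it either, beside 0.664% higher and 0.935% lower. Against control, 3 of the 5 were higher on that scale with harmine plus LPS, beside 5.14% of all compared genes. H2-Eb1 was at 2.69 FPKM with harmine plus LPS, 1.68 FPKM with LPS and 0.358 FPKM in control, H2-Aa at 1.73, 1.05 and 0.253 FPKM, and H2-Ab1 at 2.19, 1.23 and 0.490 FPKM. All 3 reached 1 FPKM only in the LPS libraries. Their plain ratios of LPS to control were 4.71 (2.43 to 9.56), 4.14 (2.36 to 7.71) and 2.50 (1.45 to 4.25), so the missing call with LPS alone rests on the 1 FPKM added; H2-Eb1 differed by 0.98 log2. The invariant chain gene Cd74 was at 92.3, 83.7 and 97.8 FPKM, and Ciita, the master regulator of the class, was at 0.0641, 0.0589 and 0 FPKM.

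Of 10 compared genes listed for the handling of surface proteins, none was higher and 1 lower with LPS, beside 5.79% and 7.21% of all. The lower one was Trem2 (8.63, 6.04 and 42.5 FPKM), which encodes a lipid receptor and is itself a surface protein. None passed 2-fold between harmine plus LPS and LPS, beside 0.664% of all compared genes higher and 0.935% lower. A share of 1 of 10 is near the 7.21% of all compared genes that were lower with LPS. Cmtm6, whose product protects PD-L1 from degradation, was at 15.9, 17.3 and 11.7 FPKM. Marchf1, encoding the ubiquitin ligase that removes CD86, was at 0.0842, 0.0362 and 0.0968 FPKM, and its relative Marchf8 was at 7.24, 8.39 and 7.09 FPKM. Adam17, a protease that sheds surface proteins, was at 33.2, 44.3 and 26.2 FPKM.

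Of 25 transcription factor genes known to act on some of these promoters, 10 were higher with LPS and 2 lower, beside 5.79% and 7.21% of all compared genes. The highest differences were those of Irf7 (4.45 log2), Myc (3.88), Nfkb2 (2.64) and Junb (2.62), and the lower ones were Nfatc2 (-1.28) and Nfatc1 (-1.20). Of the higher ones, Myc (0.905 FPKM in control) and Batf (0.369 FPKM in control) reached 1 FPKM only in the LPS libraries. They thus entered the comparison through the libraries in which they were high. With harmine plus LPS against LPS 1 of the 25 was higher, Nfatc1 at 20.6 against 7.14 FPKM, and none was lower, beside 0.664% and 0.935% of all. The NF-kB genes Nfkb1 (66.7 FPKM with harmine plus LPS against 75.1 FPKM with LPS), Nfkb2 (78.1 against 77.6 FPKM) and Rel (49.3 against 44.6 FPKM) had ratios of 0.888, 1.01 and 1.11, while Irf8 stood at 5.94 against 10.5 FPKM.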

How the data were processed

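RNA was measured by poly(A) RNA-seq with a dUTP-marked second strand, per the labels' protocols, in 1 library per group. The FPKM values were deposited by the authors, per the file headers, and so were the estimated counts per gene, without normalization. Tools named in the submitters' processing notes are HISAT2 2.2.1, StringTie 2.1.6 and cutadapt 1.9, with edgeR and DESeq2, and the build is mm10; which tool did what, and any filter, are not given in the sources used. A count of 4 was more frequent (994 to 1096 genes a library) than a count of 3 (566 to 619), and counting error was therefore computed with 4 deposited counts to a read pair. This is an inference, and intervals would be narrower if a count were a read. No count model was fitted, since no group has replicates.

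From the FPKM, differences of log2(FPKM + 1), plain ratios and exact binomial intervals were computed with Python 3.11.15, pandas 2.3.3 and scipy 1.17.1, and the fold counts and intervals were checked on simulated data. Reads amplified by PCR are not independent molecules, so intervals and the limit of 3 read pairs cover counting error only. The 8 genes and the 7 gene lists were chosen with earlier results of these data known. Named were the 8 genes, from each list at most 4 genes past 2-fold per comparison, and the 2 most similar genes to each of the 6, with some results under this rule not reported here; values of other list members, of neighbours and of Pdcd1lg2 limits were added after they were seen. Coordinates are those of the deposited table (mm10); all 8 genes were found in GENCODE M21, 7 with the same coordinates and Icosl with other ones. RefSeq promoters (GRCm38.p6) matched 6 of the 8 genes; Cd83 and Cd86 had no entry. The 9 alternatives concern the pseudocount, the filter, the scaling, the unit and the threshold.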

Additional observations from a re-analysis of the deposited data

How the results depend on the processing

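No paired analysis was possible because each group holds 1 library, and no library could be left out. Of 141 recomputed differences of single genes, none changed sign and 10 changed their side of 2-fold, all of them of Cd276, Cd80 or Cd274. For LPS over control, the count of higher genes stayed within 1.5 times of 5, and the count of lower genes was 0 with 5 FPKM added, where Cd276 differed by -0.81 log2. The median there was 2.73 log2 with 0.1 FPKM added, 1.497 with 5 FPKM added, 1.68 with no filter, 2.53 with TPM rescaling and 2.55 on CPM. For harmine plus LPS over LPS, 1 gene (Cd276) was higher with 0.1 FPKM added, 1 with TPM rescaling, 1 on CPM, and 2 at 1.5-fold; after median-of-ratios rescaling the median was 0.010 log2, with all genes at -0.02 in place of 0.10. For harmine plus LPS over control, the count of higher genes was 3 with 5 FPKM added, and 1 gene (Cd276) was lower with 0.1 FPKM added, 1 with TPM rescaling, 1 on CPM and 1 at 1.5-fold. Its median was 2.40 log2 with 0.1 FPKM added, 1.37 with 5 FPKM added, 1.48 with no filter, 2.22 with TPM rescaling and 2.24 on CPM. A larger pseudocount shrinks differences of low genes by construction, and the unfiltered median includes Cd86 and Pdcd1lg2. Depth limits Cd86 and Pdcd1lg2, each with under 10 read pairs per library, so that no difference between libraries was detectable.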

Other observations

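Within 60000 bases of the 8 genes lay 33 other genes of the table, of which 21 were compared. With LPS, 3 of the 21 were 2-fold or more higher than control and 2 lower, beside 5.79% and 7.21% of all compared genes. With harmine plus LPS against LPS 1 was higher, Icam5, and none lower, beside 0.664% and 0.935% of all compared genes. Jak2, the kinase gene upstream of Cd274, was at 12.7 FPKM with harmine plus LPS, 15.5 FPKM with LPS and 4.12 FPKM in control. Dnmt3l, upstream of Icosl, was at 1.09, 2.46 and 0.144 FPKM, and the noncoding Gm47922 beyond Icosl at 2.45, 1.41 and 0 FPKM. Dnmt3l and Gm47922 reached 1 FPKM only in the LPS libraries, so they entered the comparison through the libraries in which they were high. The lower ones were near Icam1: the sphingosine phosphate receptor gene S1pr2 at 1.21, 1.56 and 5.45 FPKM, and the splicing factor gene Raver1 at 30.4, 18.6 and 52.4 FPKM. These neighbours were chosen by position, and those named after their values were seen.

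The deposited table annotates 7 of the 8 genes, all but Cd83, to the KEGG pathway of cell adhesion molecules. Of its 57 compared genes, 12 were 2-fold or more higher with LPS than control and 7 lower, with a median of 0.42 log2, beside 5.79% and 7.21% of all compared genes and a median of -0.13 log2. The 57 include 5 of the 8 genes, 4 of them among the 12 and Cd276 among the 7. Other genes named above may be among the rest. With harmine plus LPS against LPS none was higher and 2 were lower, beside 0.664% and 0.935% of all compared genes. The median was 0.12 log2, beside 0.10 log2 for all compared genes.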
